A study of Mus musculus with 4 samples.

Results

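The 10 genes described here are Trem2, its adaptor Tyrobp, and 8 genes of the disease-associated microglia programme, Cst7, Lpl, Itgax, Clec7a, Gpnmb, Lgals3, Fabp5 and Cd9. They were chosen by name among the 55357 genes of the matrices, and each symbol matched 1 row. The values are single-cell 3′ counts from the injured-side brain hemisphere of wild-type mice with ischemic stroke, in 4 libraries. Every group carried the stroke and a hydrogel microsphere implant, placed in the infarct cavity on day 5, and tissue was taken on day 14. The MAPS group received the microspheres alone, and the other groups received microspheres carrying extracellular vesicles (EV), which the series' design text says came from reactive astrocytes. Their labels are UT EV+MAPS, IL-4 C1q EV+MAPS and IL-1a TNFa C1q EV+MAPS, and the ending is dropped below. The labels do not spell out UT, so whether the UT EV vesicles also came from reactive astrocytes is not settled here. Age, sex and the number of animals per library are not given in the sources used here, and healthy mice, which the labels mention, were not analysed here.

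Each group was 1 library, so no test between groups was possible, and library, animal and run cannot be told apart from the group. Intervals in the text are 95% intervals for counting error only. A level is the number of unique molecular identifiers (UMIs, counted molecules) of a gene in all cells of a class and library, per 1000000 UMIs of that class and library (CPM). A ratio is a ratio of 2 CPM values, and a gene is said to pass the fold where the ratio was at least 1.5 or at most its inverse, for genes with at least 50 UMIs over the 2 libraries. All 10 genes met that minimum in every comparison given here. Libraries held 45691141 to 81189155 UMIs in 13076 to 15138 barcodes, and 12302 to 14221 cells were kept. MAPS stood apart, with a median of 4541 UMIs per barcode against 2462 to 2663 in the EV libraries. Its kept cells had a median of 1.41% mitochondrial UMIs against 0.552 to 0.577%. The IL-1a TNFa C1q EV library held no barcode below 1233 UMIs, whereas the others began at 500. Libraries shared 43 to 64 barcodes per pair.

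Trem2 is a surface receptor of microglia and some macrophages that binds lipids and lipoproteins such as Apoe, and it signals through Tyrobp (DAP12), an adaptor with an intracellular activation motif that recruits the kinase Syk. Microglia that meet dying cells, myelin debris or amyloid lower their homeostatic genes such as P2ry12 and Tmem119 and raise a set of lipid-handling, lysosomal and phagocytic genes, and full entry into this state is known to need Trem2. Of the other 8 genes, Cst7 encodes a cystatin that inhibits lysosomal cathepsins, Lpl a lipase of triglyceride-rich lipoproteins, Itgax the integrin CD11c and Clec7a the beta-glucan receptor Dectin-1. Gpnmb is a lysosome-associated glycoprotein, Lgals3 the galectin that binds damaged lysosomes, Fabp5 a fatty acid carrier and Cd9 a tetraspanin.

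Promoter windows are shown for the receptor and for Cst7 and Itgax, 2 genes of the programme that were far higher in one MAPS microglial cluster than in the other, Itgax being the gene most like Cst7 in its levels over classes, so that the regulatory letters of the receptor and of these genes can be set side by side. The RefSeq promoter table (GRCm38.p6) held 7 of the 10 genes, and Tyrobp, Lpl and Fabp5 are named only. The windows are the 250 bases before the annotated start, on the plus strand: chr17:48346151-48346400 for Trem2, chr2:150570165-150570414 for Cst7 and chr7:128129300-128129549 for Itgax. Capitals mark matches to the motifs searched.
Trem2: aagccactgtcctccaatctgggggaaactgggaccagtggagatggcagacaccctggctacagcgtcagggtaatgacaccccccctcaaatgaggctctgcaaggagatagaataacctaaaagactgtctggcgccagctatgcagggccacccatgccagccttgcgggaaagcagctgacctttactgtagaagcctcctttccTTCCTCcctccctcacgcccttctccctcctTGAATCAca
Cst7: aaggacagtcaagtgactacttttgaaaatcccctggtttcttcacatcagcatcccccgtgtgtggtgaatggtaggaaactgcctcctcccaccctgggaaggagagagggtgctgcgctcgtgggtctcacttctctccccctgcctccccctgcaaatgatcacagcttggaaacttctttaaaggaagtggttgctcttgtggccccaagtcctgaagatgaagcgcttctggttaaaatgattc
Itgax: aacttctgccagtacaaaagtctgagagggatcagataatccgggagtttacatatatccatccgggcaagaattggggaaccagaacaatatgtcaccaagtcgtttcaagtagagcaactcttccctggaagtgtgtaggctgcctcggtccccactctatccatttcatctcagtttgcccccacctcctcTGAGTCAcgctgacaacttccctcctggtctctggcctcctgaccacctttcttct
Both strands were searched for the PU.1 core GAGGAA, which 23.3% of all 32851 promoter windows of this length held, the AP-1 site TGANTCA (6.75%), the E-box CACGTG (6.02%), TCACGTG, which contains that E-box (3.13%), and TCATGTG (3.25%). The Trem2 window held the PU.1 core on the opposite strand, printed as TTCCTC and beginning 40 bases before the start, and an AP-1 match 9 bases before it. Itgax held an AP-1 match 56 bases before its start, and Clec7a, which has 2 entries, held the PU.1 core 96 or 90 bases before. No searched motif matched in Cst7, Gpnmb, Lgals3 or Cd9, which says only that these letters were not in these windows. The files hold no measurement of binding, so a match is a description of the letters.

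Cells were clustered without the 10 genes and classed by markers. Microglia-like cells were 6759 in MAPS, 4297 in UT EV, 4841 in IL-4 C1q EV and 4982 in IL-1a TNFa C1q EV, and all 11 microglial markers were detected in each. Different clusters held nearly all of them: clusters 0 and 1 in MAPS, and clusters 19 and 20 in the EV libraries. This division was not particular to microglia. Of the 670 MAPS oligodendrocytes, 637 lay in cluster 9, whereas most of those in the EV libraries lay in cluster 22. Astrocytes, endothelial cells, neuroblasts and T cells were divided likewise, while dendritic, choroid plexus, ependymal and B cells each shared a cluster over the libraries. A further phagocyte cluster, led by Apoc4, Apoc1, Spp1 and Saa3, took no name, since 2 of 11 microglial, 2 of 10 monocyte or macrophage and 0 of 8 border macrophage markers passed in it. It is called the Apoc1-Saa3 cluster (cluster 3) and held 94, 1295, 1660 and 1099 cells in the order MAPS, UT EV, then IL-1a TNFa C1q EV, then IL-4 C1q EV. Another, led by Fabp4, Pf4, Atp6v0d2 and Gpnmb, had 4 of 8 border macrophage and 4 of 10 monocyte or macrophage markers. It is called the Fabp4-Pf4 cluster (cluster 2) and held 76, 729, 882 and 1048 cells in the same order. Gpnmb and Lgals3 are among the leading genes of this cluster and Cst7 of the other. None of the 10 genes was used to form them.

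**Figure D1:**
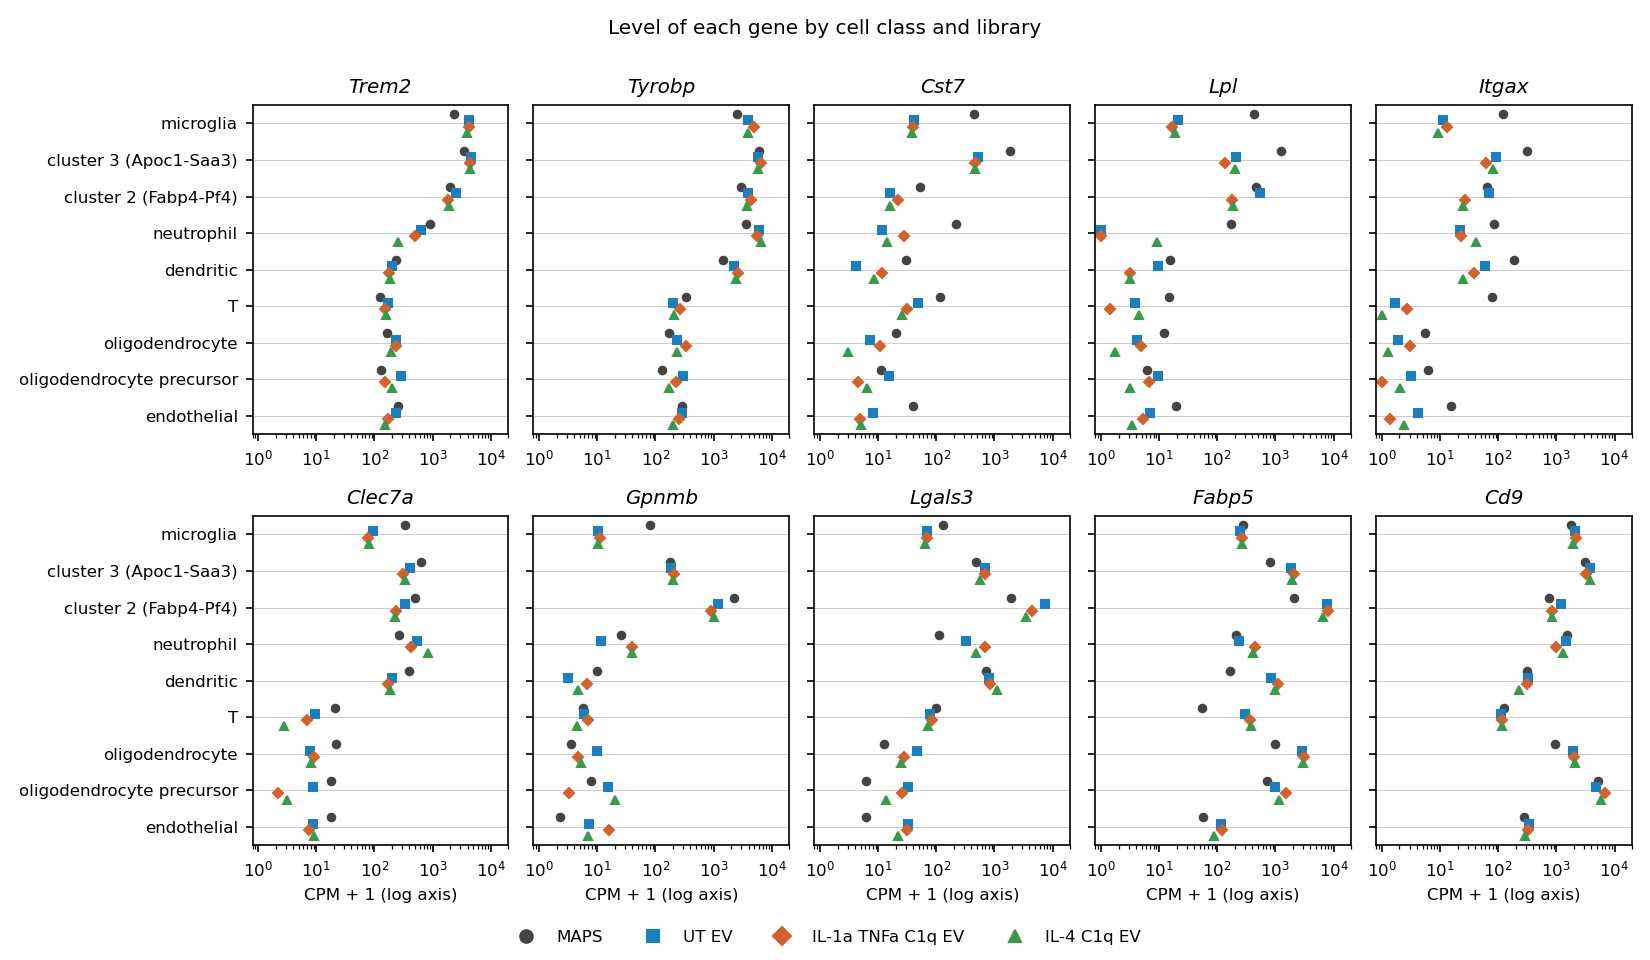
Levels of the 10 genes (CPM plus 1, log axis) in 9 cell classes, 1 point per library, with 28 neutrophils and 48 oligodendrocyte precursors behind the MAPS points of those classes. In microglia the Cst7 point of MAPS is at 439 CPM and those of the EV libraries between 36.8 and 39.7, while Gpnmb and Lgals3 are highest in the Fabp4-Pf4 cluster.

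The receptor and its adaptor were abundant in the microglia of every library. Trem2 was at 2351 CPM in MAPS, 4153 in UT EV, 3969 in IL-4 C1q EV and 4284 in IL-1a TNFa C1q EV. Tyrobp was at 2495 CPM in MAPS, 3877 in UT EV, 3943 in IL-4 C1q EV and 5016 in IL-1a TNFa C1q EV. Both were thus lowest in MAPS, and the EV libraries lay close together apart from the higher Tyrobp of IL-1a TNFa C1q EV. With each cell thinned to 1000 UMIs, 87.0% of MAPS microglia and 96.8 to 97.4% of EV microglia had a Trem2 UMI, and without thinning 99.0 to 99.3% did in all. In T cells, which should lack Trem2, the thinned share was 8.14 to 11.5%. Median UMIs per cell before thinning were 2180 to 4551 in microglia and 1764 to 4276 in T cells.

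The genes of the disease-associated programme divided into those that differed many-fold between MAPS and the EV libraries in the microglia-like clusters and those that did not. Cst7 was at 439 CPM in MAPS, 39.7 in UT EV, 36.8 in IL-4 C1q EV and 38.8 in IL-1a TNFa C1q EV. Lpl was at 424.7 CPM in MAPS, 20.2 in UT EV, 17.8 in IL-4 C1q EV and 15.9 in IL-1a TNFa C1q EV. MAPS stood far above 3 EV libraries that lay within a narrow range, and the same held for the next 3 genes. Itgax was at 120.9 CPM in MAPS against 10.4, 12.2 and 8.25 in UT EV, then IL-1a TNFa C1q EV, then IL-4 C1q EV. Clec7a was at 339.7 CPM in MAPS against 93.2, 75.8 and 78.6. Gpnmb was at 81.1 CPM in MAPS against 9.17, 10.1 and 9.46. For the remaining 3 genes the libraries lay closer. Lgals3 was at 128.9 CPM in MAPS and at 68.4, 68.6 and 61.7 in the EV libraries, in the same order. Fabp5 was at 275.9 CPM in MAPS and at 240.7, 268 and 262.5 in the EV libraries. Cd9, which microglia also carry at rest, was at 1752 CPM in MAPS and at 2074, 2165 and 1907 in the EV libraries.

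Free RNA gives some UMIs in cells that do not express a gene, so the shares were set beside those of other classes. In the EV libraries 14.1 to 15.6% of thinned microglia had a Fabp5 UMI, against 20.9 to 25.02% of T cells and 9.30 to 11.4% of endothelial cells. For Lgals3 the EV shares were 3.97 to 4.95% of microglia, 5.74 to 6.83% of T cells and 1.94 to 2.83% of endothelial cells. For both genes, whether the EV microglia stood above other cells thus depended on the class chosen. Gpnmb was found in 0.595 to 0.816% of EV microglia and 0.412 to 0.917% of endothelial cells, and that microglial share was read as background. For Cst7 the T cell is a poor reference because lymphocytes express it, so endothelial cells were used. After thinning, 14.3% of MAPS microglia and 2.42 to 2.87% of EV microglia had a Cst7 UMI, against 4.69% and 0.494 to 0.585% of endothelial cells, whose median depth was 3510 UMIs in MAPS and 1869 to 1913 in the EV libraries. Without thinning the microglial shares were 32.2% in MAPS and 6.90 to 7.38%. Lpl was found in 11.5% of thinned MAPS microglia and 0.964 to 1.10% of EV microglia, against 1.06% of T cells in MAPS and at most 0.185% in the EV libraries. Endothelial cells were at 2.34% in MAPS and 0.247 to 0.585% in the EV libraries, and EV oligodendrocyte precursors at 0.807 to 1.39%. Whether Lpl of the EV microglia stood above other cells thus depended on the class chosen.

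Among the EV libraries no member passed the fold in microglia (nearly all in clusters 19 and 20). Few genes of any kind did, so a count of 0 of 10 does not set the members apart from other genes. For IL-4 C1q EV over UT EV, 0 of 10 passed the fold, where 7.59% of all 10591 genes tested did. For IL-1a TNFa C1q EV over UT EV, 0 of 10 passed against 7.35% of all genes, and for IL-4 C1q EV over IL-1a TNFa C1q EV 0 of 10 against 7.89%. The median log2 ratio of the members was -0.12, 0.05 and -0.10 in these 3 comparisons, beside -0.09, -0.13 and 0.03 over all genes tested. The comparisons share libraries, UT EV being in the first pair and each vesicle library in 2 of them. The member farthest from 1 for IL-1a TNFa C1q EV over UT EV was Tyrobp, with a ratio of 1.29 (1.28 to 1.31), and Tyrobp was at 0.786 (0.777 to 0.796) for IL-4 C1q EV over IL-1a TNFa C1q EV. Itgax was at 0.674 (0.519 to 0.873) in that last comparison, just inside the fold, and passed it with TMM factors (0.655) and after thinning (0.557). Clec7a was at 0.843 (0.773 to 0.920) in IL-4 C1q EV and 0.814 (0.745 to 0.888) in IL-1a TNFa C1q EV, both over UT EV. Lpl, at 0.879 (0.730 to 1.06) and 0.788 (0.649 to 0.955) over UT EV, had few UMIs in these cells. Cst7, at 0.926 (0.813 to 1.06) for IL-4 C1q EV over UT EV, had an interval that included 1.

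**Figure D2:**
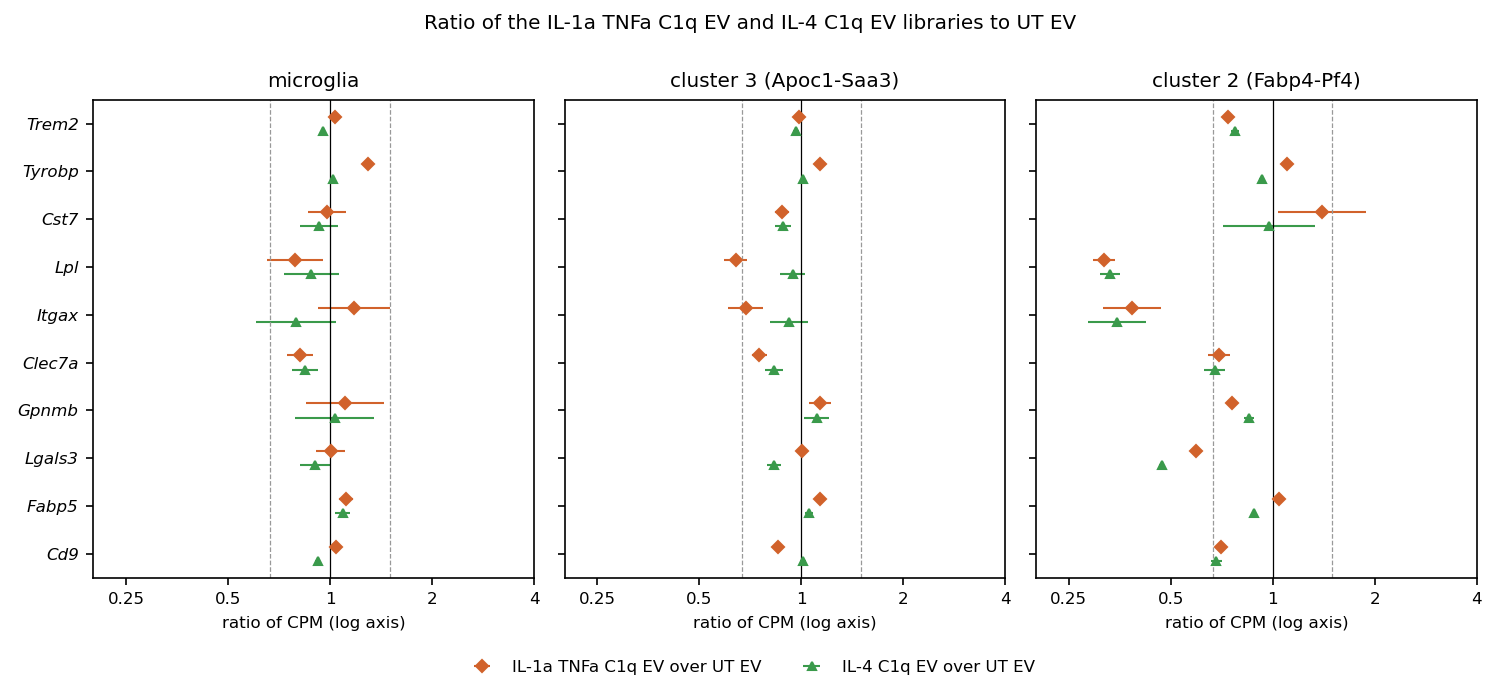
Ratios of the IL-4 C1q EV and IL-1a TNFa C1q EV libraries to UT EV for the 10 genes (log scale) in microglia, the Apoc1-Saa3 cluster and the Fabp4-Pf4 cluster, with 95% counting intervals and dashed lines at 1.5-fold. No microglial ratio passes 1.5-fold, whereas Lpl, Itgax and Lgals3 of the Fabp4-Pf4 cluster lie between 0.318 and 0.595.

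For UT EV over MAPS in the microglia-like clusters, 2 members were past the fold upward and 6 downward, in a comparison in which 12.4% of all 13405 genes tested were past it upward and 62.3% downward. The higher genes were Trem2, at 1.77 (1.75 to 1.79), and Tyrobp, at 1.55 (1.54 to 1.57). Lpl was lowest at 0.0476 (0.0418 to 0.0540), followed by Itgax at 0.0860 (0.0715 to 0.103), Cst7 at 0.0905 (0.0825 to 0.0991), Gpnmb at 0.113 (0.0927 to 0.137), Clec7a at 0.275 (0.258 to 0.292) and Lgals3 at 0.531 (0.492 to 0.571). Fabp5, at 0.872, and Cd9, at 1.18, were within the fold. The median log2 ratio was -1.39 for the members and -0.94 over all genes. These cells lie mostly in different clusters in the 2 libraries, and the 11 microglial markers summed to 20645 CPM in MAPS and 10977 in UT EV. With TMM factors from edgeR in place of class totals, all genes moved from a median log2 ratio of -0.94 to -0.27, and the genes past the fold from 1664 higher and 8350 lower to 3336 and 5029. Under that scaling Trem2 was at 2.80, Tyrobp at 2.47 and Cd9 at 1.88, Cst7 and Lpl were still lower at 0.144 and 0.0756, and Lgals3 was inside the fold at 0.842. The part of depth, mitochondrial share and library in these ratios was not tested.

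The comparison with MAPS depended on where the Apoc1-Saa3 cluster was placed. With it added to microglia, an alternative chosen after the data were seen, UT EV over MAPS had 5 members past the fold upward and 4 downward, where 11.4 and 65.9% of all genes were past it in those directions. Lgals3, at 2.14, turned from lower to higher. Fabp5, at 2.84, and Cd9, at 1.52, joined Trem2, at 1.82, and Tyrobp, at 1.79. The higher Fabp5 was not particular to phagocytes. From MAPS to UT EV it went from 997.9 to 2919 CPM in oligodendrocytes and from 648.8 to 2229 CPM in astrocytes. Neuroblasts went from 741 to 1861 CPM and T cells from 53.35 to 302.1 CPM. Of the 13 classes ordered over all 4 libraries, only microglia did not have their lowest Fabp5 in MAPS. The cause was not tested. Cst7, at 0.459 (0.444 to 0.476), Lpl, at 0.201, Itgax, at 0.310, and Clec7a, at 0.598, kept their direction and stayed past the fold, while Gpnmb moved from 0.113 to 0.860, inside it. The members' median log2 ratio went from -1.39 to 0.19, against -1.10 over all genes. Among the EV libraries the same pooling left 0 of 10 members past the fold for IL-4 C1q EV over UT EV (6.29% of all genes) and for IL-1a TNFa C1q EV over UT EV (8.67%). For IL-4 C1q EV over IL-1a TNFa C1q EV it put 1 past it, Lgals3 at 0.622 (0.597 to 0.648), where 2.62% of all genes were past it downward.

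Within MAPS, cluster 0 carried the programme and cluster 1 did not. Cluster 0 held 25.8% of the MAPS microglia and cluster 1 73.9%. Cst7 was at 911.7 CPM in cluster 0 and 50.3 in cluster 1, Lpl at 872.1 and 56.4, and Itgax at 242.7 and 21.2. Gpnmb was at 174.7 CPM in cluster 0 and 4.25 in cluster 1, Clec7a at 639.2 and 92.4, Fabp5 at 559.6 and 42.9, and Lgals3 at 269.1 and 12.99. Trem2 differed much less, at 2629 CPM in cluster 0 and 2122 in cluster 1, as did Tyrobp, at 3143 and 1962, and Cd9, at 2294 and 1306. The homeostatic gene P2ry12 ran the other way, at 400.8 CPM in cluster 0 and 2349 in cluster 1, and so did Tmem119, at 336.9 and 1538. Apoe was at 91611 CPM in cluster 0 and 7217 in cluster 1. These clusters were formed without the 10 genes but from genes that vary with them, so the difference is a description.

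Both EV microglial clusters held little Cst7 and Clec7a beside MAPS cluster 0. In cluster 20, the larger, Cst7 was at 47.1, 44.6 and 43.2 CPM in UT EV, then IL-1a TNFa C1q EV, then IL-4 C1q EV, and in cluster 19 at 13.1, 14.6 and 13.6 CPM. Clec7a was at 112.7, 89.9 and 92.9 CPM in cluster 20 and at 28.0, 18.0 and 21.5 CPM in cluster 19. Trem2 was at 3878 to 4065 CPM in cluster 19, close to the 4002 to 4338 CPM of cluster 20. P2ry12 was at 436 to 517 CPM in cluster 19 and 272 to 323.3 in cluster 20, well under the 2349 CPM of MAPS cluster 1. The EV microglia had low values of both the programme and P2ry12 beside high Trem2.

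**Figure D3:**
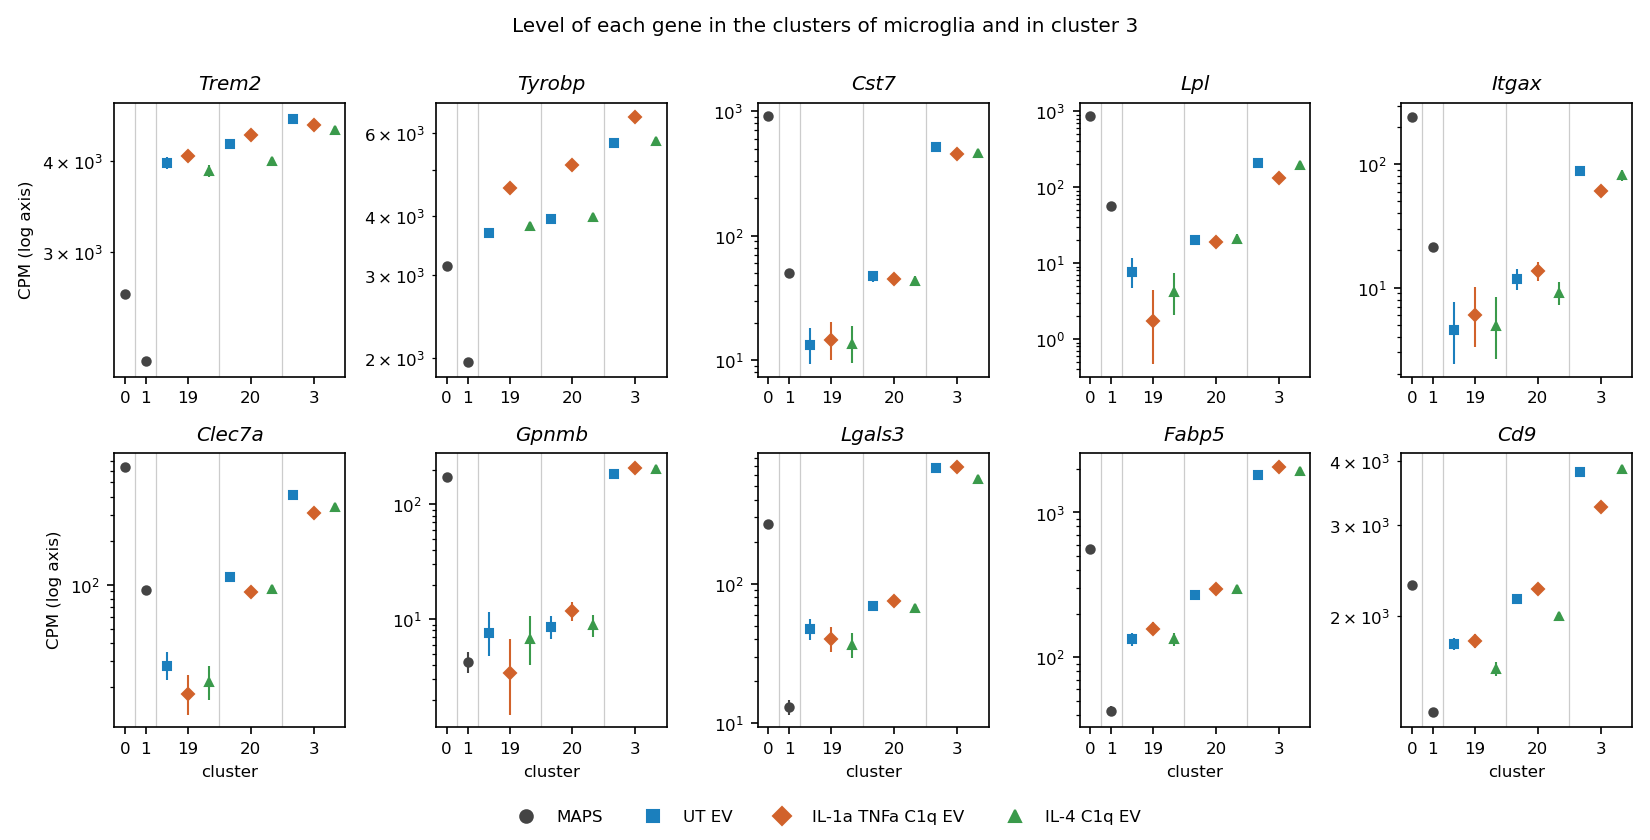
Levels of the 10 genes (CPM, log axis) in microglial clusters 0 and 1 (MAPS) and 19 and 20 (EV libraries) and in cluster 3 (Apoc1-Saa3, EV libraries), 1 point per library with 95% counting intervals. Cst7 is at 911.7 CPM in MAPS cluster 0 and between 454 and 517.7 CPM in the Apoc1-Saa3 cluster of the EV libraries.

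In the EV libraries most Cst7 transcripts lay in the Apoc1-Saa3 cluster, which also held more Lpl, Itgax and Clec7a per UMI than the microglia did. Cst7 there was at 517.7 CPM in UT EV, 458 in IL-4 C1q EV and 454 in IL-1a TNFa C1q EV, and Lpl at 209.6, 197.3 and 134 CPM in that order. Trem2 was at 4574, 4409 and 4485 CPM and Tyrobp at 5716, 5772 and 6490 CPM, again in that order. Both thus exceeded the microglial level of the same library. Itgax was at 88.9, 81.5 and 60.9 CPM, Clec7a at 409.8, 340.0 and 308 CPM, and Fabp5 at 1825, 1926 and 2074 CPM. The 94 MAPS cells had Cst7 at 1873 CPM and Lpl at 1225 CPM, above every EV library, with Fabp5 lower at 799.9 CPM. Fabp5 was lowest in MAPS in most other classes too. A gate applied cell by cell called 97.9% of the MAPS cells of the cluster microglia and 69.9 to 72.5% of the EV cells. The 11 microglial markers summed to 13105 CPM in MAPS and 4801 to 5738 in the EV libraries, and the monocyte and macrophage markers to 474.3 CPM and 693.8 to 905.8.

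Between EV libraries in the Apoc1-Saa3 cluster, Lpl passed the fold in 1 comparison. That count is near the share over all genes, and which member passed depended on thinning. For IL-1a TNFa C1q EV over UT EV it was at 0.639 (0.591 to 0.691), making 1 of 10 past it downward where 6.69% of all genes were, and Itgax, at 0.685 (0.608 to 0.771), was just inside. With cells thinned to 1000 UMIs, Lpl moved to 0.776, inside the fold, and Itgax to 0.635, past it. In IL-4 C1q EV over UT EV, 0 of 10 passed against 7.13%, with Lgals3, at 0.828 (0.789 to 0.869). None of the 10 passed for IL-4 C1q EV over IL-1a TNFa C1q EV, against 11.3%, with Lpl at 1.47 (1.35 to 1.60) and Itgax at 1.34 (1.17 to 1.53). With a floor of 1233 UMIs per cell in all libraries that Lpl ratio was 1.51, and after thinning it was 1.13. The median log2 ratio of the members was -0.11, -0.07 and -0.01 in these comparisons, against -0.11, -0.01 and 0.11 over all genes.

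The Fabp4-Pf4 cluster carried a different part of the list, with Gpnmb, Lgals3 and Fabp5 far above microglia and Cst7 low. Gpnmb was at 2295 CPM in MAPS, 1187 in UT EV, 1011 in IL-4 C1q EV and 902.2 in IL-1a TNFa C1q EV. Lgals3 was at 1887, 7344, 3456 and 4369 CPM and Fabp5 at 2091, 7570, 6685 and 7881 CPM, in the same order. Cst7 was at 14.7 to 50.4 CPM, and Trem2 at 1832 to 2482 CPM, lower than in the microglia of the same library. The MAPS values rest on 76 cells, of which the gate called 44.7% microglia.

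It was also where members differed between EV libraries. In the ratio of IL-4 C1q EV to UT EV, 3 of 10 were past the fold and lower, where 5.22% of all genes were past it downward: Lpl at 0.332 (0.309 to 0.355), Itgax at 0.348 (0.285 to 0.423) and Lgals3 at 0.471 (0.463 to 0.479). The same 3 were lower in IL-1a TNFa C1q EV over UT EV, where 9.21% of all genes were, at 0.318 (0.295 to 0.342), 0.385 (0.315 to 0.468) and 0.595 (0.585 to 0.605). Both comparisons share the UT EV library. Clec7a, at 0.674 and 0.694, and Cd9, at 0.682 and 0.703, were just inside. After thinning to 1000 UMIs, Itgax was at 0.150 in IL-4 C1q EV and 0.194 in IL-1a TNFa C1q EV, and Clec7a was past the fold in both, at 0.611 and 0.587. Cst7, which has few UMIs there, was past it in the former at 0.555 and went from 1.40 to 0.799 in the latter. The levels show UT EV standing above the others: Lpl was at 550.9 CPM in UT EV and at 175 and 182.6 in IL-1a TNFa C1q EV, then IL-4 C1q EV. Between those last 2 libraries 0 of 10 passed, against 14.0% of all genes. The members' median log2 ratio was -0.46 for IL-4 C1q EV over UT EV and -0.47 for IL-1a TNFa C1q EV over UT EV, against 0.01 and -0.11 over all genes. In this cluster the 5 erythroid markers summed to 1549 CPM in UT EV, 194.1 in IL-4 C1q EV and 184.5 in IL-1a TNFa C1q EV, and all 5 were at 0 in MAPS. The border macrophage markers summed to 742.2 CPM in MAPS, 1193 in UT EV, 1438 in IL-4 C1q EV and 1809 in IL-1a TNFa C1q EV. Their part in the result was not tested.

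Classes were ordered over the EV libraries, in which 18 classes had at least 50 cells in each. MAPS values are given only for some genes and classes, all with at least 50 cells there. Trem2 was at a mean of 4489 CPM in the Apoc1-Saa3 cluster, 4135 in microglia and 2078 in the Fabp4-Pf4 cluster, with no overlap between these ranges, and every other class lay below. In MAPS those 3 were at 3473, 2351 and 1994 CPM. Tyrobp was highest in neutrophils, at a mean of 6065 CPM, and in the Apoc1-Saa3 cluster, at 5993, whose ranges overlapped. Cst7 was at a mean of 476.6 CPM in the Apoc1-Saa3 cluster, above the range of every other class, followed by NK cells at 83.9, microglia at 38.4 and T cells at 33.9. Lpl was at a mean of 302.8 CPM in the Fabp4-Pf4 cluster and 180.3 in the Apoc1-Saa3 cluster, with overlapping ranges. In MAPS the order was the other way, with 460.5 CPM in 76 cells and 1225 CPM in 94 cells. Itgax, by textbook use a marker of dendritic cells, was at a mean of 77.1 CPM in the Apoc1-Saa3 cluster and 39.8 in dendritic cells. In MAPS Itgax was at 311.5 CPM in the Apoc1-Saa3 cluster and 186 in dendritic cells. In T cells it was at 76.9 CPM in MAPS against 0 to 1.66 in the EV libraries, but these were largely different T cells. Of the 1426 MAPS T cells, 1398 lay in a cluster led by Cd8a. In UT EV, then IL-1a TNFa C1q EV, then IL-4 C1q EV, 660, 1116 and 553 T cells lay in a cluster led by Il17a and Trdc. Clec7a was highest in neutrophils, at a mean of 598.7 CPM, with no overlap with the Apoc1-Saa3 cluster at 352.6. Gpnmb and Lgals3 were highest in the Fabp4-Pf4 cluster, at means of 1033 and 5056 CPM, with no overlap with the next class. Fabp5 was at a mean of 7379 CPM in that cluster and 2996 in oligodendrocytes. Cd9 was at a mean of 5816 CPM in oligodendrocyte precursors and 3638 in the Apoc1-Saa3 cluster, so neither of these last 2 genes is limited to phagocytes.

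**Figure D4:**
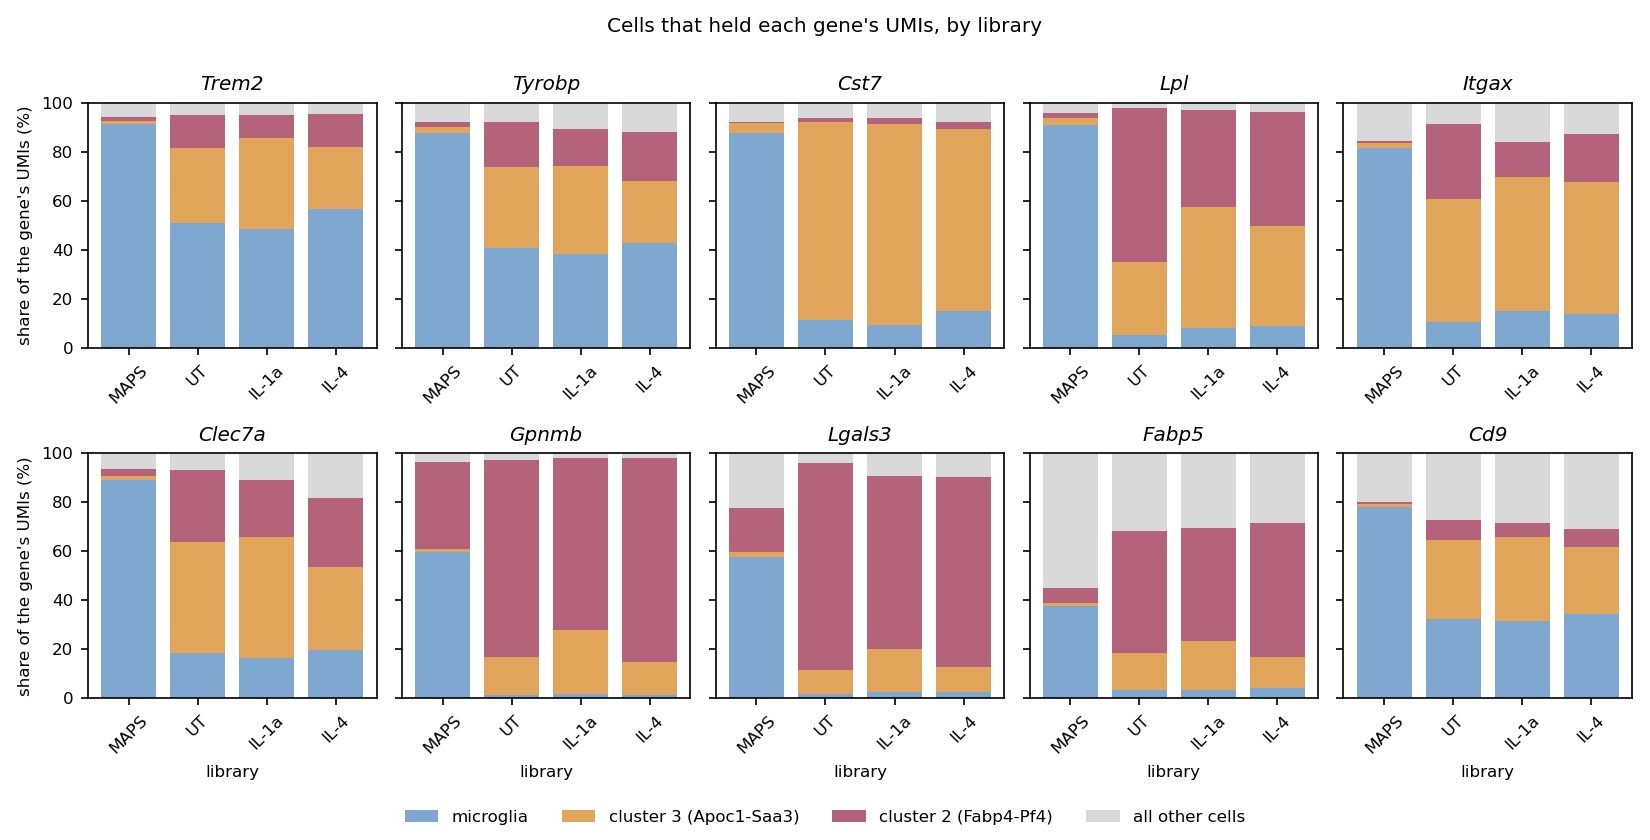
Share of each gene's UMIs (percent) held by microglia, clusters 3 and 2 and all other cells, as stacked bars for each library (UT, IL-1a and IL-4 on the axis are the 3 EV libraries). Microglia gave 87.8% of the Cst7 UMIs in MAPS, and the Apoc1-Saa3 cluster gave 74.2 to 81.7% in the EV libraries.

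The source of the transcripts differed accordingly. Microglia gave 91.2% of all Trem2 UMIs in MAPS and 48.6 to 56.8% in the EV libraries, where the Apoc1-Saa3 cluster gave 25.04 to 37.1%. For Cst7, microglia gave 87.8% in MAPS, and the Apoc1-Saa3 cluster gave 80.7, 81.7 and 74.2% in UT EV, then IL-1a TNFa C1q EV, then IL-4 C1q EV. For Lpl, microglia gave 90.9% in MAPS, the Fabp4-Pf4 cluster 62.9% in UT EV and 46.8% in IL-4 C1q EV, and the Apoc1-Saa3 cluster 49.3% in IL-1a TNFa C1q EV. Gpnmb and Lgals3 came mostly from microglia in MAPS, at 59.6 and 57.5%, and from the Fabp4-Pf4 cluster in the EV libraries, at 70.1 to 83.2% and 70.4 to 84.4%. These shares follow both the level per cell and the number of cells, which cannot be told apart in them.

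Cell by cell, few microglia had many of the 10 genes detected at 1000 UMIs. At that depth a gene can be missed in a cell that has it: Cst7 was found in 14.3% of thinned MAPS microglia and 32.2% without thinning. The shares below thus do not give the share of cells that carry the programme. With each cell thinned to 1000 UMIs, the median number of the 10 genes detected was 3 in the microglia of each library. At least 6 were detected in 6.91% of MAPS microglia (462 of 6689 cells) and in 0.696% of UT EV (29 of 4165), 0.683% of IL-1a TNFa C1q EV (34 of 4982) and 0.701% of IL-4 C1q EV microglia (33 of 4709). In the Apoc1-Saa3 cluster the shares were 48.4% (44 of 91 cells) in MAPS, 26.4% (303 of 1147) in UT EV, 22.2% (216 of 973) in IL-4 C1q EV and 20.5% (340 of 1660) in IL-1a TNFa C1q EV. With microglia and that cluster pooled, the libraries were much closer: MAPS had 7.46% (6.85 to 8.12%), UT EV 6.25% (5.61 to 6.94%), IL-4 C1q EV 4.38% (3.87 to 4.95%) and IL-1a TNFa C1q EV 5.63% (5.09 to 6.21%).

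**Figure D5:**
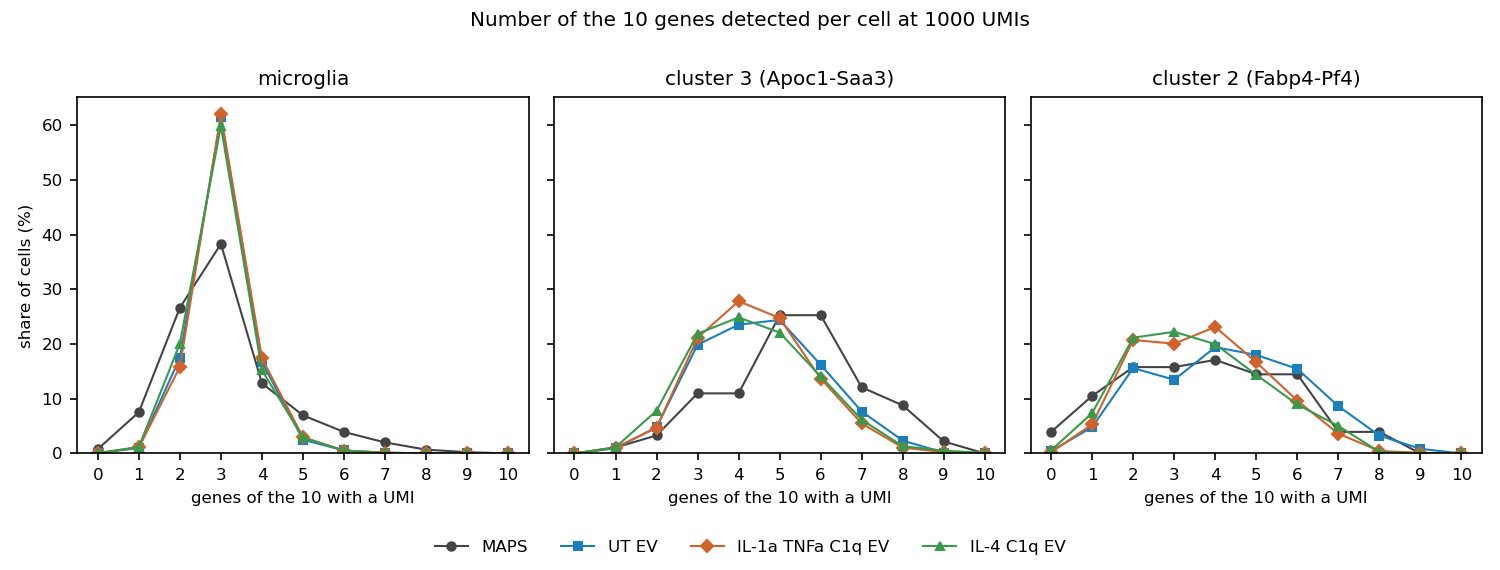
Number of the 10 genes detected per cell after thinning to 1000 UMIs (percent of cells) in microglia and in the Apoc1-Saa3 and Fabp4-Pf4 clusters, 1 line per library. At least 6 genes are seen in 6.91% of MAPS microglia and in 0.683 to 0.701% of EV microglia.

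Cells with more of the 10 genes had fewer homeostatic transcripts. In MAPS microglia with 0 to 2, 3 to 5 and 6 to 10 genes detected, P2ry12 was at 2345, 1845 and 279 CPM and Tmem119 at 1563, 1223 and 171 CPM. Apoe was at 11523, 31586 and 85301 CPM in the same 3 bins and Spp1, or osteopontin, at 107, 486 and 7039 CPM. In the EV libraries the order was the same with microglia and the Apoc1-Saa3 cluster together: in UT EV, P2ry12 was at 382, 341 and 27.1 CPM and Spp1 at 210.0, 2712 and 30777 CPM. The MAPS microglia mix clusters 0 and 1, where P2ry12 was at 400.8 and 2349 CPM and Spp1 at 3517 and 62.0 CPM. The pooled set mixes microglia with the Apoc1-Saa3 cluster. In both, the bins thus also follow cluster.

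Within MAPS microglia the other genes were detected more often in cells with a Cst7 UMI than in cells without. These microglia mix clusters 0 and 1, where Cst7 was at 911.7 and 50.3 CPM, so the shares also follow cluster. Of the 957 thinned cells with a Cst7 UMI, 32.7% also had Lpl, against 7.99% of the 5732 cells without Cst7. The shares were 21.0 and 3.91% for Itgax, 39.5 and 11.5% for Clec7a, 27.0 and 7.99% for Fabp5, 12.96 and 3.44% for Lgals3, and 8.05 and 1.52% for Gpnmb. For Trem2, which nearly every cell had, they were 90.6 and 86.4%. Few EV microglia had Cst7, and Lpl was found in 5.88% (2.19 to 12.4%) of the 102 in UT EV, 4.20% (1.56 to 8.91%) of the 143 in IL-1a TNFa C1q EV and 1.75% (0.213 to 6.19%) of the 114 in IL-4 C1q EV, against 0.985, 0.868 and 1.05% of the cells without Cst7. For Lpl in the last library the interval included the share of the other cells. Clec7a was found in 12.75% (6.96 to 20.8%), 11.89% (7.08 to 18.4%) and 12.28% (6.88 to 19.8%) of the Cst7 cells, in the same order. Cells without Cst7 were at 5.64, 4.98 and 5.55%. Gpnmb, in 0.980, 0.699 and 1.75% of the Cst7 cells, had intervals that included the 0.812, 0.723 and 0.566% of the other cells.

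The other genes of the pathway were grouped in lists chosen with earlier results known. Among the EV microglia the shares of the lists past the fold are read beside those of all genes: 2.48% higher and 5.11% lower for IL-4 C1q EV over UT EV, 1.45 and 5.9% for IL-1a TNFa C1q EV over UT EV, and 4.8 and 3.1% for IL-4 C1q EV over IL-1a TNFa C1q EV. None of the 3 Trem2 ligands passed the fold in IL-4 C1q EV over UT EV, Apoe being at 1.35 (55948 CPM in UT EV and 75557 in IL-4 C1q EV) and Psap, the saposin precursor, at 1.13. Of 14 signalling genes downstream of Tyrobp and of 7 inhibitors and sheddases, 0 passed. Of 3 other receptors that use Tyrobp 1 was lower, the NK receptor gene Klrd1 at 0.425 (0.249 to 0.706). That ratio rests on a low count, 23 UMIs in IL-4 C1q EV and 53 in UT EV. Of 22 other disease-associated genes, 1 was higher, the phosphatidylserine-dependent receptor kinase Axl at 1.57 (1.32 to 1.87), and 1 lower, the chemokine Ccl6 at 0.641 (0.572 to 0.718). Of 14 homeostatic genes 0 passed, with P2ry12 at 0.831 and a median log2 ratio of -0.20 against -0.09 over all genes. Among 17 partners of the members, 1 was higher, the galectin-binding protein gene Lgals3bp at 2.27 (2.10 to 2.44), and among 15 lipid-handling genes 1 was higher, Apoc1 at 1.501. Abca1, the cholesterol exporter, was at 1.47.

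For IL-1a TNFa C1q EV over UT EV, 0 of 22 disease-associated, 0 of 14 homeostatic and 0 of 17 partner genes passed, 1 of 14 signalling genes was lower, Malt1 at 0.636, and 1 of 15 lipid-handling genes was higher, Fabp4 at 2.35 (1.49 to 3.79), from a low count. For IL-4 C1q EV over IL-1a TNFa C1q EV, 2 of 22 disease-associated genes were higher, Axl at 2.11 (1.74 to 2.56) and the growth factor gene Csf1 at 1.56, and 2 of 17 partners, Lgals3bp at 2.75 and the galectin gene Lgals9 at 1.76. Lower in that comparison were 1 of 15 lipid-handling genes, Fabp4 at 0.358 (0.215 to 0.579), and 1 of 3 receptors, Klrd1 at 0.412 (0.241 to 0.681). Both rest on low counts, with 24 and 66 UMIs for Fabp4 and 23 and 55 for Klrd1. For UT EV over MAPS most genes of these lists were lower, as were 62.3% of all genes: 11 of 14 signalling genes, 16 of 22 disease-associated genes with 3 higher, and 12 of 14 homeostatic genes, with median log2 ratios of -1.33, -1.26 and -1.36 against -0.94 over all genes. P2ry12 was at 0.253, the receptor gene Csf1r at 0.257 and the growth factor gene Igf1 at 0.0914.

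In the Apoc1-Saa3 cluster, 5 of 22 disease-associated genes were higher and 1 lower in IL-4 C1q EV over IL-1a TNFa C1q EV, where 8.66% of all genes were higher and 2.63% lower, and the list's median log2 ratio was 0.13 against 0.11 over all genes. Csf1 was at 1.89, Ank at 1.84, the cholesterol hydroxylase gene Ch25h at 1.78 and Axl at 1.68. For IL-1a TNFa C1q EV over UT EV the same list had 1 higher, Lyz2 at 1.65, and 3 lower, with Ccl6 at 0.572, where 1.81% of all genes were higher and 6.69% lower. In the Fabp4-Pf4 cluster, 2 of 19 lipid-handling genes were higher and 2 lower in IL-4 C1q EV over UT EV, with a median log2 ratio of 0.04 against 0.01 over all genes. The higher were Apoc1 at 2.03 and the triglyceride synthesis gene Dgat1 at 1.56, and the lower were the fatty acid transporter gene Cd36 at 0.431 and the lipid-sensing nuclear receptor gene Pparg at 0.387. In IL-1a TNFa C1q EV over UT EV 0 of 19 were higher and 3 lower, Cd36 at 0.406 and Pparg at 0.451 among them, with a median of -0.23 against -0.11. Among 20 partners 4 were higher and 2 lower in IL-4 C1q EV over UT EV, and 1 higher and 2 lower in IL-1a TNFa C1q EV over UT EV. Angptl4, an inhibitor of Lpl, was among the higher at 2.13 and 3.29. For all genes in this cluster 6.43% were higher and 5.22% lower in the first comparison, and 2.75 and 9.21% in the second.

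Over 71 sums of a class and library and 15737 genes, the genes whose log2 levels were most like those of Trem2 were C1qb (Pearson's r = 0.993), C1qa (0.989), C1qc (0.983), Fcgr3 (0.908) and Syngr1 (0.885). For Tyrobp they were Fcer1g (0.973), Cd300c2 (0.917), Gngt2 (0.886), Spi1 (0.881) and Aif1 (0.874). For Cst7 they were Itgax (0.722), Tent5c (0.710), Pdcd1 (0.702), Ctsd (0.698) and Maf (0.690), a mixture of phagocyte and T cell genes. Among the members the closest pairs were Itgax with Clec7a (0.80) and Tyrobp with Clec7a (0.79), and the least alike were Cst7 and Fabp5 (-0.08). The sums share libraries and depth, so these values describe the pattern over classes.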

How the data were processed

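Dissociated cells of 4 libraries, 1 per group, were counted. The authors deposited raw UMI counts per gene and barcode (10x 3′, v3, per the labels), made with Cell Ranger 8.0.1 per the file headers. GRCm39 is the build in the submitters' processing notes, which list Seurat 4.1.0, bcl2fastq 5.0.1 and another Cell Ranger, 7.0.0. Which Cell Ranger version made the counts is not settled.

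Filters were a minimum of 500 UMIs and 300 genes and a maximum of 20.0% mitochondrial UMIs per cell. Scrublet, as called from scanpy 1.11.5, marked 3.63 to 5.23% of the passing cells as doublets, and these were removed. Clustering used 3000 variable genes without the 10 members, 40 principal components, 15 neighbours and Leiden resolution 1, giving 31 clusters, of which 3 stayed unnamed. A cluster took a name from at least 3 markers of a list. UMIs were summed per library and class. Levels have exact Poisson, shares exact Clopper-Pearson and ratios exact conditional binomial 95% intervals, checked on simulated data. These cover counting error only. Shares of cells were compared after thinning each cell to 1000 UMIs. With 1 library per group there was no test.

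Named genes were all 10 members, at most 4 genes per list with the largest ratios (1 of these is not reported here), and the 5 genes most like Trem2, Tyrobp and Cst7, among genes with at least 200 UMIs. Members and lists were chosen with earlier results of these data known. Alternatives were edgeR 4.0.16 TMM factors, other cluster settings, UMI floors, thinning, a per-cell gate, doublets kept, and 2 further definitions of the phagocytes. The Python tools were Python 3.11.15, scipy 1.17.1, numpy 2.4.6, pandas 2.3.3 and igraph 0.11.9.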

Additional observations from a re-analysis of the deposited data

How the results depend on the processing

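No paired analysis was possible because each group was 1 library, and for the same reason no library could be left out. In microglia, for IL-4 C1q EV over UT EV, the count of members past 1.5-fold went from 0 to 1 with members allowed among the clustering genes (Lpl at 0.655), 1 after thinning (Gpnmb at 0.641) and 3 with all phagocyte clusters together, where the median log2 ratio was -0.33 (-0.24 with the Apoc1-Saa3 cluster added). For IL-1a TNFa C1q EV over UT EV the median was 0.00 with members allowed, 0.03 after thinning, 0.17 with TMM factors, -0.18 with all phagocytes, where 2 members passed, and 0.03 with the Apoc1-Saa3 cluster. For IL-4 C1q EV over IL-1a TNFa C1q EV the count was 1 with members allowed, 2 after thinning, 1 with TMM factors and 1 with the Apoc1-Saa3 cluster. For UT EV over MAPS the median was -1.58 at resolution 2, -1.51 with members allowed, -0.09 with the per-cell gate, -1.60 with doublets kept, -0.86 after thinning, -0.72 with TMM factors, 0.58 with all phagocytes and 0.19 with the Apoc1-Saa3 cluster. Lgals3 turned higher at 1.77 with the gate, 10.96 with all phagocytes and 2.14 with the Apoc1-Saa3 cluster, and Gpnmb at 2.49 with all phagocytes. The cause was not tested. Low counts of Itgax, Gpnmb and Lpl limit the EV microglial ratios.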
